A study of Mus musculus with 2 samples.

Results

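Transcript models of 6000 bases or more whose whole chain of introns was read are the subject here. They were chosen from the deposited models by 3 conditions: the class Known, NIC or NNC, at least 2 exons, and a deposited length of at least 6000 bases, with spike-in controls left out. Known models carry the introns of an annotated transcript. NIC models combine annotated splice sites in an unannotated way, and NNC models hold at least 1 unannotated splice site. Together these classes are called full-splice below. Replicate 1 held 4693 such long models and replicate 2 held 4552, of 265985 deposited models of all classes in both libraries. Joined by their introns, they came to 7681 distinct chains in 2907 genes.

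The study read whole RNA molecules from the hippocampus of female B6CASTF1/J mice, a hybrid of the B6 and CAST strains, at 2 months of age, with no treatment named. Its 2 libraries form 1 group and are numbered as biological replicates, each from 2 µg of total RNA. The labels give both the same donor code but separate biosample codes, and do not say how many animals went into a library or whether these were separate. The spread over n = 2 may therefore be technical in part, and the counts do not separate the parental alleles. After spike-ins were left out, replicate 1 held 826596 reads and replicate 2 held 745492, so that 1 read stood for 1.21 and 1.34 CPM, that is counts per 1e+06 non-spike-in reads. Hippocampal markers were present in both libraries. The 3 CA1 markers summed to 520 and 562 CPM and the 3 dentate granule cell markers to 359 and 427 CPM. Choroid plexus markers summed to 338 and 184 CPM, with Aqp1 and Otx2 listed in neither library, and blood markers to 217 and 331 CPM. Whether these differences bear on the long models was not tested.

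A messenger RNA becomes long in either of 2 ways. Its coding part may be long, as in the spectrins, dynein and other giant proteins of axons and dendrites, whose coding sequence is spread over many exons. Otherwise its last exon may be long, since neurons often use distal polyadenylation sites and carry extended 3′ untranslated regions, where RNA-binding proteins and microRNAs act and from which messages are directed to dendrites. A long-read library copies RNA from its 3′ end by reverse transcription, and copies that stop early lack the 5′ exons. TALON, the program that named the models, calls such reads incomplete splice matches (ISM).

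Sequences of a splice junction that makes a leading long chain unannotated, and of microexons held by long models, are given first. All are taken from the GENCODE M21 transcripts on mm10, written 5′ to 3′ along the transcript. The following lines show the unannotated junction of the leading Sort1 chain beside the annotated junction that shares its other splice site. Capitals mark the downstream exon.
Sort1, junction of the unannotated chain: tgaatggctcctgcaCTGATCTTGGTGCCC
Sort1, annotated junction: tgaatggctcctgcaAAGCTGATCTTGGTG
In Sort1 (chromosome 3, plus strand) the intron ran from 108331961 to 108334568, where the annotated one ends at 108334565, so the exon was 3 bases shorter.

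Microexons, here internal exons of at most 27 bases, are a known feature of neuronal messages. They are shown for 6 genes whose long models hold one inside coding sequence, chosen after their values were seen to cover both nearly complete and partial inclusion, and each is in capitals between 12 bases of the flanking exons.
Sptan1, 15 bases: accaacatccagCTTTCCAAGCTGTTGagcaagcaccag
Sptan1, 18 bases: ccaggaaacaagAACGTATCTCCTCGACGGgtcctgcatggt
Sugt1, 17 bases: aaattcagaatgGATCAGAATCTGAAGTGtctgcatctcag
Synj1, 24 bases: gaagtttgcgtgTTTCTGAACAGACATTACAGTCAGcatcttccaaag
Mast2, 21 bases: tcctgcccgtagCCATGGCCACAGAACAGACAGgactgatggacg
Dock4, 27 bases: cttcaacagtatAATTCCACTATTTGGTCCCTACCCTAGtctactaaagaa
Myo6, 27 bases: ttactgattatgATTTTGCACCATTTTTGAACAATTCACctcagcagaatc
Sptan1 codes for alpha spectrin, Sugt1 for a co-chaperone, Synj1 for the synaptic phosphatase synaptojanin, Mast2 for a microtubule-associated kinase, Dock4 for an exchange factor of small GTPases, and Myo6 for a myosin motor.

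Long models took a small share of full-splice reads. Replicate 1 gave 20878 of 520605 full-splice reads to them and replicate 2 gave 20423 of 464537. These counts are 4.01% (95% exact Clopper-Pearson interval 3.96% to 4.06%) and 4.40% (4.34% to 4.46%), with a mean of 4.20% ± 0.273 (SD, n = 2). The share was 1.10 times as high in replicate 2 (two-sided Fisher's exact test on reads, p = 1.45e-21), a test that compares these 2 libraries only. Most full-splice reads lay in far shorter models. The class from 2000 to 3000 bases held 27.6% and 27.5% of them, the class from 6000 to 7000 bases 2.06% and 2.24%, and models of 10000 bases or more 0.293% and 0.313%. Reads per model fell from 11.6 and 11.2 at 1000 to 2000 bases to 4.68 and 4.70 at 6000 to 7000 bases.

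Of the 7681 long chains, 1423 were annotated, 3783 were NIC, 2429 were NNC and 46 were named NIC in 1 library and NNC in the other. A total of 1564 chains were long in both libraries, which is 33.3% of the long chains of replicate 1 and 34.4% of those of replicate 2, yet they held 82.2% and 81.5% of the long reads. Annotated chains recurred more often than the rest, 1008 of 1423 (70.8%) against 556 unannotated chains (8.88%). This comparison depends on the deposited length and on depth. Of 793 unannotated chains read in both libraries and long in at least 1, 237 were under 6000 bases in the other. Annotated chains cannot cross the limit in this way, since their deposited length is that of the annotation. A single long read supported 5510 chains, and such chains cannot be long in both libraries. Reads were gathered in few genes. There were 74 genes with at least 100 long reads over both libraries, and these held 39.4% of all long reads, while 1062 genes had 1 long read. By gene type, 2863 of the 2907 genes were protein coding and 14 were lincRNA genes, and 4 were not in the annotation.

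The 12 genes with the most long reads were led by Ppp2ca, the catalytic subunit of protein phosphatase 2A. Its long models had 489 reads in replicate 1 and 418 in replicate 2, or 576 ± 21.8 CPM (SD, n = 2). The kinesin heavy chains Kif5a and Kif5c, which drive transport along axons, followed with 398 and 367 reads and with 372 and 369 reads. Eif4g2, a translation initiation factor, had 323 and 332 reads, and Glo1, which detoxifies methylglyoxal, had 274 and 267. The order is one of reads and not of the amount of RNA, and genes with longer annotated transcripts had larger shares of incomplete reads.

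The nuclear RNA-binding protein Hnrnpu had 280 and 246 long reads, and Matr3, another nuclear RNA-binding protein, had 156 and 164. Rab11b, a GTPase of recycling endosomes, had 222 and 189. Gria2, the AMPA receptor subunit that limits calcium entry, had 203 and 184. The membrane-bound protease Mmp17 had 172 and 198, the myotubularin-family protein Sbf1 had 186 and 164, and the sulfotransferase Chst2 had 154 and 157. In CPM the SD between libraries ran from 0.871 in Gria2 to 40.7 in Mmp17. Means of neighbours in this order such as Kif5a (487 ± 7.64 CPM) and Kif5c (473 ± 31.8 CPM) lay within the spread between libraries, whereas Ppp2ca lay above Kif5a in both libraries.

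**Figure D1:**
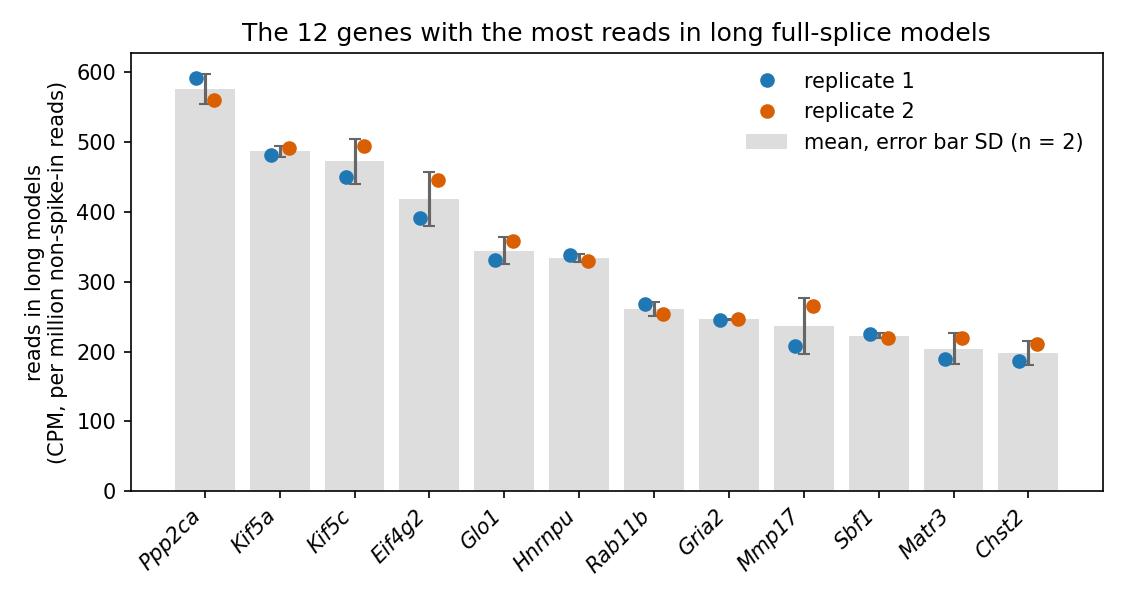
Reads in long full-splice models for the 12 genes with the most such reads, in CPM on the vertical axis, with a point for each library, a bar for the mean and an error bar for the SD (n = 2). Ppp2ca is highest in both libraries at 592 and 561 CPM, and the points of Mmp17 are far apart at 208 and 266 CPM.

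A single annotated chain held most of the long reads of each of these genes. In Sbf1, which had 60 long chains, it was Sbf1-201 with 101 and 92 reads. Ppp2ca-201 (chromosome 11, 52098681 to 52127778, plus strand) had 488 and 418 reads, which were 99.2% (97.9% to 99.8%) and 99.1% (97.6% to 99.7%) of the full-splice reads of the gene. Glo1-206 (chromosome 17, 30584936 to 30612659, minus strand) had all 274 and 267 long reads of Glo1, 95.8% and 97.4% of its full-splice reads. Gria2-201 (chromosome 3, 80681450 to 80802835, minus strand) had 181 and 173 reads, a lower share of 57.6% (52.0% to 63.2%) and 55.8% (50.1% to 61.4%). Chst2-201, which has 2 exons, held 100% of 154 and 99.4% of 158 full-splice reads of Chst2.

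The length of most of these leading members lay in the last exon. Glo1-206 is 9865 bases long, of which 9291 are its last exon and 552 are coding. Ppp2ca-201 is 7102 bases long with a last exon of 5877 bases and 927 coding bases. In Gria2-201 the last exon has 7265 of 10371 bases, and in Rab11b-201 it has 5330 of 6109 bases. Sbf1-201 was unlike these, with 490 of 6190 bases in the last exon and 5450 bases in the exons between the first and the last, and so was Kif5a-201, with 2726 of 6295 and 2988 bases. Over all long models the median last exon was 2593 bases in replicate 1 and 2611.5 in replicate 2, against 873.5 and 878 in shorter full-splice models. Weighted by reads, 64.2% and 63.7% of long reads were in models whose last exon made up more than 50% of the length.

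**Figure D2:**
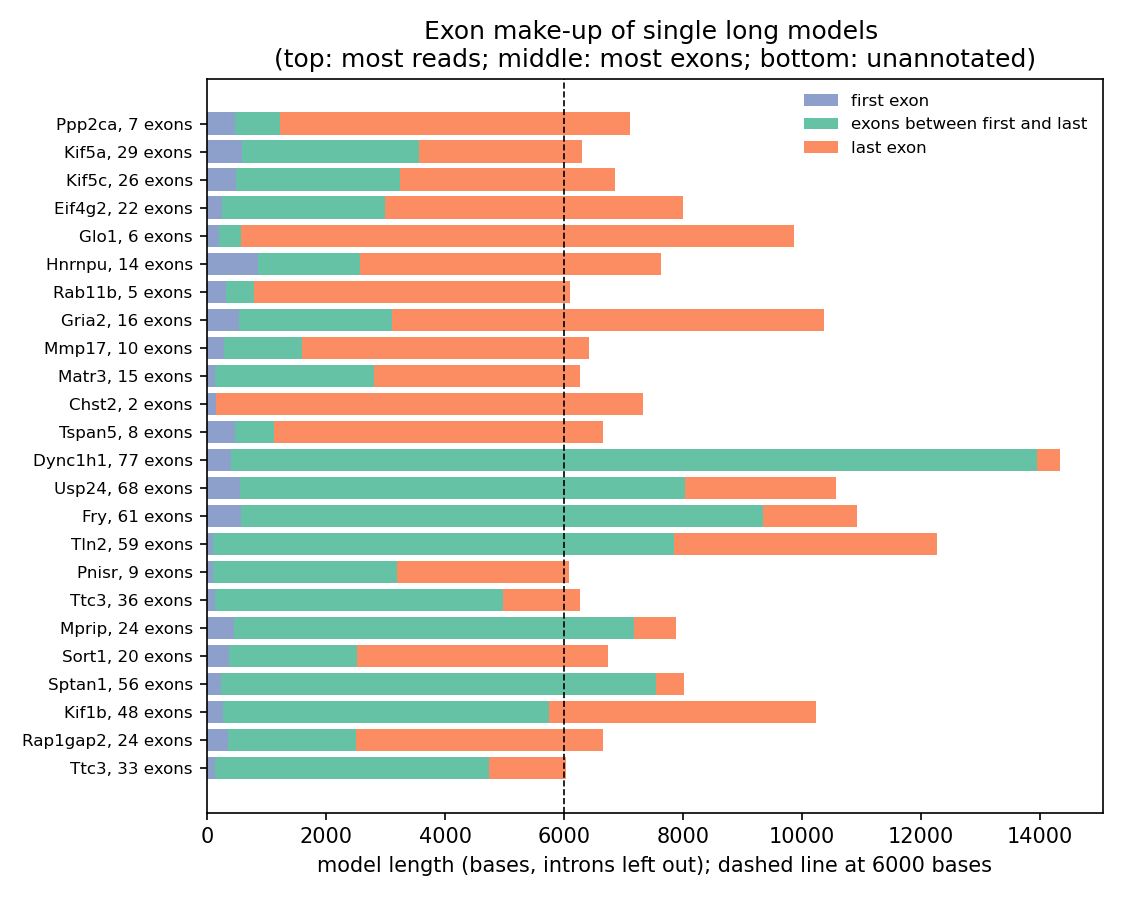
Lengths of the first exon, the exons between and the last exon, in bases, for single long models: the 12 with the most reads (top), 4 of those with the most exons (middle) and the 8 unannotated ones with the most reads (bottom). Glo1 is nearly all last exon, at 9291 of 9865 bases, whereas Dync1h1 has 13556 of 14342 bases between its end exons.

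Annotated long members had little coding sequence for their length. The coding part was a median 37.7% of the length in 1217 coding Known models of replicate 1 and 37.1% in 1172 of replicate 2. Models with less than 50% coding sequence took 80.8% and 80.7% of the Known long reads. Coding sequences of 6000 bases or more belonged to 130 and 123 models with 735 and 736 reads. The GC content of Known long models was lower than that of shorter ones, with medians of 46.9% in both libraries against 51.4% and 51.3%. GENCODE M21 lists 4081 transcripts with several exons and at least 6000 bases, and 1423 of these (34.9%) were seen, in 1244 of 2488 genes.

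The deposited length of a Known model is that of the annotated transcript, which held for all 1240 and 1191 Known members. It does not show how far into the last exon the reads went. Other models of the same genes that use the same last acceptor have last exons with a deposited length of their own. Their ends need not show where reads stopped either. Over all unannotated models the 3′ end was an annotated one in 85.7% and 85.3% of long models. In shorter ones it was 84.7% and 84.9%. For Known members with a last exon of at least 3000 bases, other models with the same last acceptor had 5886 and 5701 reads. The last exon of these models reached a read-weighted median of 43.7% and 48.6% of the annotated one. The annotated end was matched by the models of 24.9% and 26.9% of these reads. Models whose deposited last exon ended before the middle of the annotated one held 54.5% and 50.7% of these reads. Kif5c models reached the annotated end in all 55 and 67 such reads, with a last exon of 3615 bases. By contrast, none of 11 and 12 such reads of Glo1 did, and their longest last exon was 2719 bases in both libraries, of 9291 annotated. In Gria2 the longest was 3830 bases of 7265, over 65 and 57 reads. In steps of 10% of the annotated last exon, reads were most frequent at 10 to 20% and at full length.

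**Figure D3:**
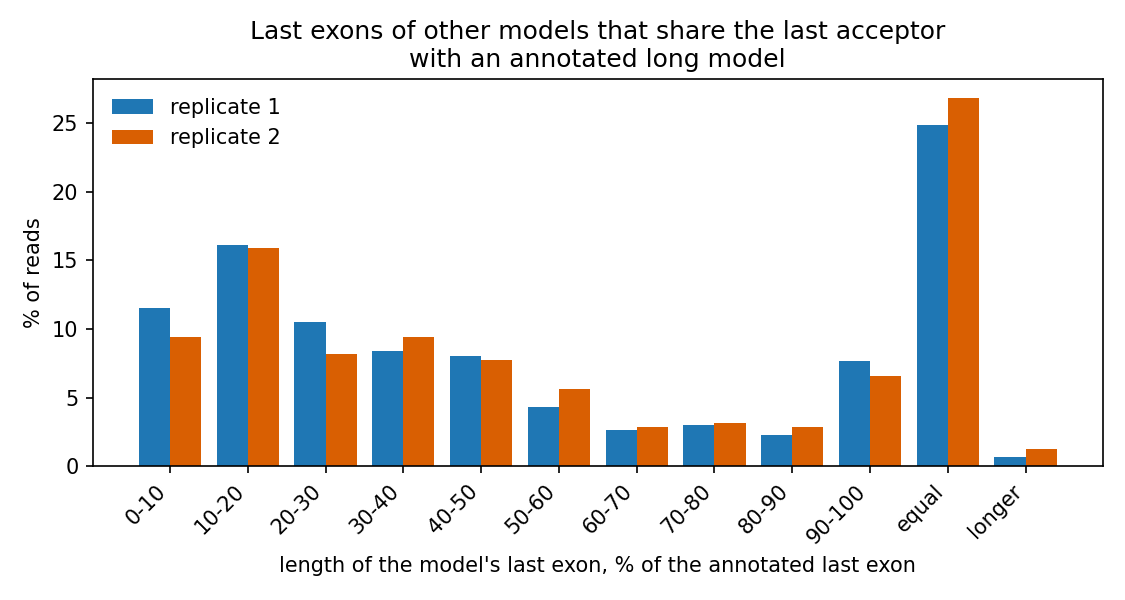
Share of reads, on the vertical axis in %, by how long the model's last exon was as a percentage of the annotated last exon of a Known long model with the same last acceptor, for each library. The bars peak at 10 to 20% and at equal length, the latter with 24.9% and 26.9% of reads.

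At the length limit the members did not stand apart. Kif5b-201, of 6032 bases, had 83 and 77 reads and Spred1-201, of 6016 bases, had 51 and 50, and both were inside. Ppp1cb-201, of 5962 bases, had 140 and 119 reads and Tomm70a-201, of 5964 bases, had 108 and 78, and both were outside. Within 50 bases of the limit lay 276 chains inside and 271 outside.

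Among chains with at least 5 reads and at least 1 in each library, the 8 longest were annotated models with most of their length in the last exon. D10Wsu102e-201 (chromosome 10, 83360221 to 83488505) is 123179 bases long with 4 exons and had 7 and 9 reads. Its last exon is annotated with 122802 bases, while the other models with the same last acceptor had 2 reads and 1 read, with last exons of 3139 and 3132 bases. D1Ertd622e-201, of 40378 bases, had 12 and 3 reads. Hnrnpr-207, of an RNA-binding protein, has 21452 bases and had 25 and 20 reads, and Serbp1-201, of another, has 15474 bases and had 34 and 34. Other models of Hnrnpr on the same acceptor had last exons of 1263 bases in both libraries, of 20029 annotated.

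The kinase Aak1, which acts in clathrin-mediated endocytosis, had an annotated model of 19341 bases at 3 and 4 reads. A model of Dpp10, a subunit of Kv4 potassium channels, was 15297 bases long with 14 and 6 reads. That of Dgkh, a diacylglycerol kinase, was 15257 bases long with 6 and 7 reads, and its other models reached last exons of up to 10803 of 11408 bases in replicate 1 and 5794 in replicate 2. Akap6-201, of a kinase anchor protein, was 14847 bases long with 12 and 9 reads, and unlike the rest it held 6998 bases between its first and last exon.

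Long models had a median of 19 and 20 exons, against 10 in shorter full-splice models, and up to 89 and 93. Among chains with at least 5 reads and at least 1 in each library, Dync1h1-201, the cytoplasmic dynein heavy chain (chromosome 12, 110601452 to 110666945), had the most exons. It has 77 exons, a coding part of 13932 bases and a last exon of 383 bases, and it was read 8 and 4 times. Usp24-201, a deubiquitinase with 68 exons, had 4 and 2 reads. An NIC chain of Fry, a gene of microtubule organization, had 61 exons with 5 and 2 reads. An unannotated chain of the adhesion protein talin, Tln2, had 59 exons with 5 and 1 reads.

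The bases between the first and the last exon are those a spliced read must have carried. They came to at least 6000 in 872 and 852 long models with 1556 and 1521 reads, which is 7.45% of long reads in each library. Over both libraries these were 1548 chains in 678 genes, 176 of them long in this sense in both, and 1287 rested on 1 read. Mprip, a myosin phosphatase partner, had 59 and 67 such reads, and the fatty acid synthase Fasn had 71 and 50. Sptbn1 had 43 and 57, Sptan1 had 49 and 44, and the lipid kinase Pi4ka had 40 and 43. At least 10000 such bases were carried by 54 chains in 41 genes with 72 reads in all. The largest value, 14518 bases, was in a chain of the histone methyltransferase gene Kmt2c with 59 exons and 1 read, and Herc2-201, of a giant ubiquitin ligase, was read whole across 93 exons by 1 read.

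Unannotated models took 25.4% of long reads in replicate 1 and 26.7% in replicate 2, or 26.0% ± 0.933 (SD, n = 2; two-sided Fisher's exact test between the libraries, p = 0.00228). The library difference was not past 0.05 with a limit of 5000 bases (Fisher's exact test, p = 0.507) or 8000 bases (p = 0.609), and it was reversed when the end exons were left out of the length (p = 0.527). In shorter full-splice models the share was 15.3% and 15.4%. The difference between long models and all shorter ones pooled was larger than the spread between libraries in both. It did not begin at the 6000-base limit. By length class, the share rose from 4.95% and 5.43% under 1000 bases to 29.4% and 28.5% at 5000 to 6000 bases. Classes from 6000 to 10000 bases had 25.3% to 28.9%. At 10000 bases or more it was 15.6% and 15.2%, close to that of the shorter models pooled. By number, 73.6% and 73.8% of long models were unannotated, most with few reads, and 77 unannotated chains in 67 genes had at least 5 reads in each library.

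The unannotated chain with the most reads was in Pnisr, a splicing-related protein (chromosome 4, 21848048 to 21876467, plus strand). It has 9 exons and 6080 bases, its exons hold 4 annotated introns of the gene, and it took 42 and 37 reads, 56.8% and 56.9% of the full-splice reads of Pnisr. In Ttc3, a ubiquitin ligase (chromosome 16, 94370739 to 94469220), a chain of 36 exons had 36 and 43 reads and one of 33 exons had 25 and 20. Mprip had an NIC chain of 24 exons with 33 and 37 reads, of which 6723 bases lay between the end exons. Rap1gap2, a GTPase-activating protein, had one of 24 exons with 24 and 24 reads, 54.5% and 52.2% of its full-splice reads. All introns of these 5 NIC chains are annotated, so they are unannotated only as combinations.

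The Sort1 chain whose junction is printed above (sortilin, a sorting receptor) had 38 and 29 reads, 35.8% (26.8% to 45.7%) and 29.9% (21% to 40%) of the full-splice reads of the gene. The Kif1b chain (a kinesin that carries synaptic vesicle precursors and mitochondria) had 29 and 24 reads, or 40.8% and 52.2%. Its 48 exons come to 10245 bases, with a last exon of 4492. The Sptan1 chain, of 56 exons and 8021 bases, had 35 and 30 reads, 62.5% and 55.6% of the full-splice reads of Sptan1. Its unannotated donor lay 30 bases downstream of the nearest annotated one.

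Retained introns were frequent among unannotated long models. An annotated intron of the gene lay wholly inside an exon in 44.4% and 43.4% of them, against 30.1% and 30.8% of shorter unannotated models. Among the 1548 chains with at least 6000 bases between the end exons the share was 53.4%. These comparisons depend on how the models were chosen. An intron kept inside an exon adds its bases to the length by which a model counts as long. Long models also have more exons, and no rate per intron was computed. Whether retention was more frequent in long models apart from this was not tested. Both ends of an unannotated long model coincided with annotated ends in 71.8% and 71.3%, against 73.9% and 73.5% in shorter ones.

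The length deposited for an unannotated chain differed between the libraries. Of 793 unannotated chains that were long in at least 1 library and read in both, 259 (32.7%) had the same length in both, and 235 (29.6%) differed by over 1000 bases. For 237 of them (29.9%) the chain was long in 1 library and under 6000 bases in the other, whereas all 1008 Known chains had the same length in both. The last exon differed more than the first in 323 of the chains and the first more than the last in 211. In the calcium pump gene Atp2b1 the same 22 exons were deposited with 5132 bases and 46 reads in replicate 1 and with 7452 bases and 42 reads in replicate 2, and the last exon had 1016 and 3336 bases. The chain of the kinase Map4k5 had 4409 bases with 27 reads and 6416 bases with 37. That of the amino acid transporter family member Slc7a4 had 2720 bases with 30 reads and 6882 bases with 26. The Mast2 chain went the other way, with 6301 bases and 38 reads in replicate 1 and 5727 bases and 23 reads in replicate 2. In each of these 4 chains both libraries had at least 23 reads, and only 1 library counted them as long.

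**Figure D4:**
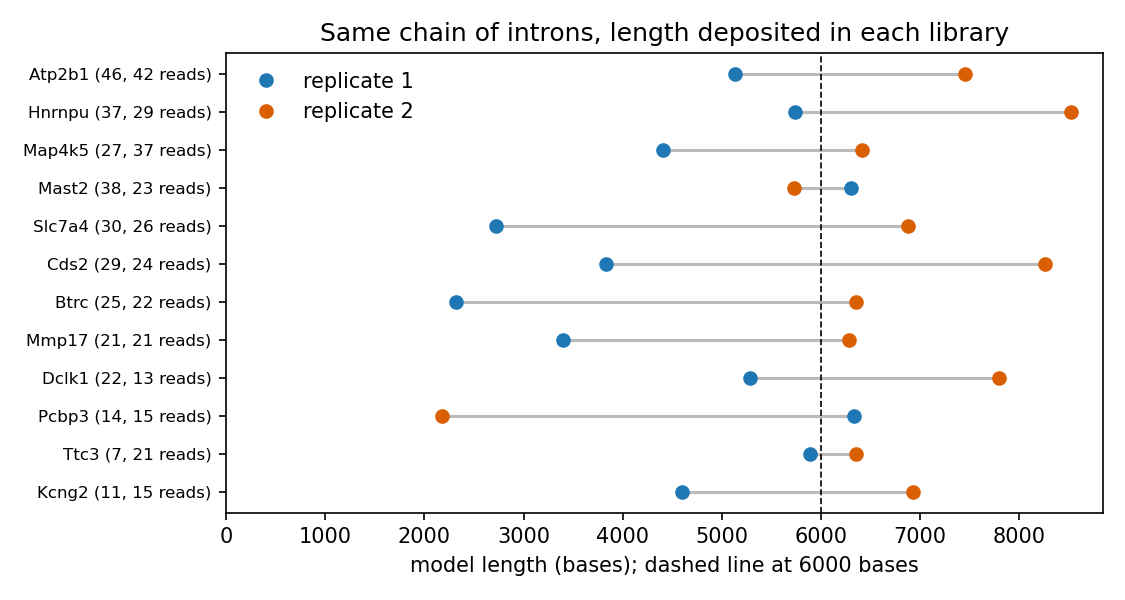
Length in bases deposited in each library for the 12 unannotated chains with the most reads that were over 6000 bases in only 1 library, with their reads in replicates 1 and 2 in parentheses. Slc7a4 moves from 2720 to 6882 bases and Pcbp3 from 6336 to 2181.

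Microexons were present in 7.27% and 7.14% of long models, against 3.74% and 3.61% of shorter full-splice models. Long models have more exons, and per 1000 internal exons the numbers were 4.48 and 4.47 against 4.51 and 4.34. They were found in 562 long chains of 173 genes, and in 405 of these chains the smallest exon was a multiple of 3 bases. The 15-base microexon of Sptan1 (chromosome 2, 30014158 to 30014172) was present in 51 of 53 full-splice reads that span it in replicate 1 and in 44 of 49 in replicate 2, and the 18-base one in all 52 and 49. That of Sugt1 was in 35 of 37 and 27 of 31 reads and that of Synj1 in 69 of 70 and 75 of 78. The Myo6 microexon (chromosome 9, 80303273 to 80303299) was included less fully, in 16 of 22 and 8 of 12 reads. The Mast2 one was in 60 of 69 and 48 of 56, and the Dock4 one in 35 of 42 and 45 of 50.

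Genes with a long model had more incomplete reads than other genes. Incomplete reads made up 20.0% of incomplete plus full-splice reads in replicate 1 and 21.4% in replicate 2, a mean of 20.7% ± 0.978 (SD, n = 2). In genes whose full-splice models were all shorter it was 12.2% and 12.6%. The share rose with the longest annotated coding transcript of a gene, from 9.69% in both libraries at under 2000 bases to 40.9% and 41.8% at 10000 bases or more. Reads of the genomic class, which overlap a gene without matching its exon structure, rose as well, from 8.41% and 7.49% of the reads of these genes to 32.7% and 32.8%. Genes were not tested against each other, since they are no replicates.

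**Figure D5:**
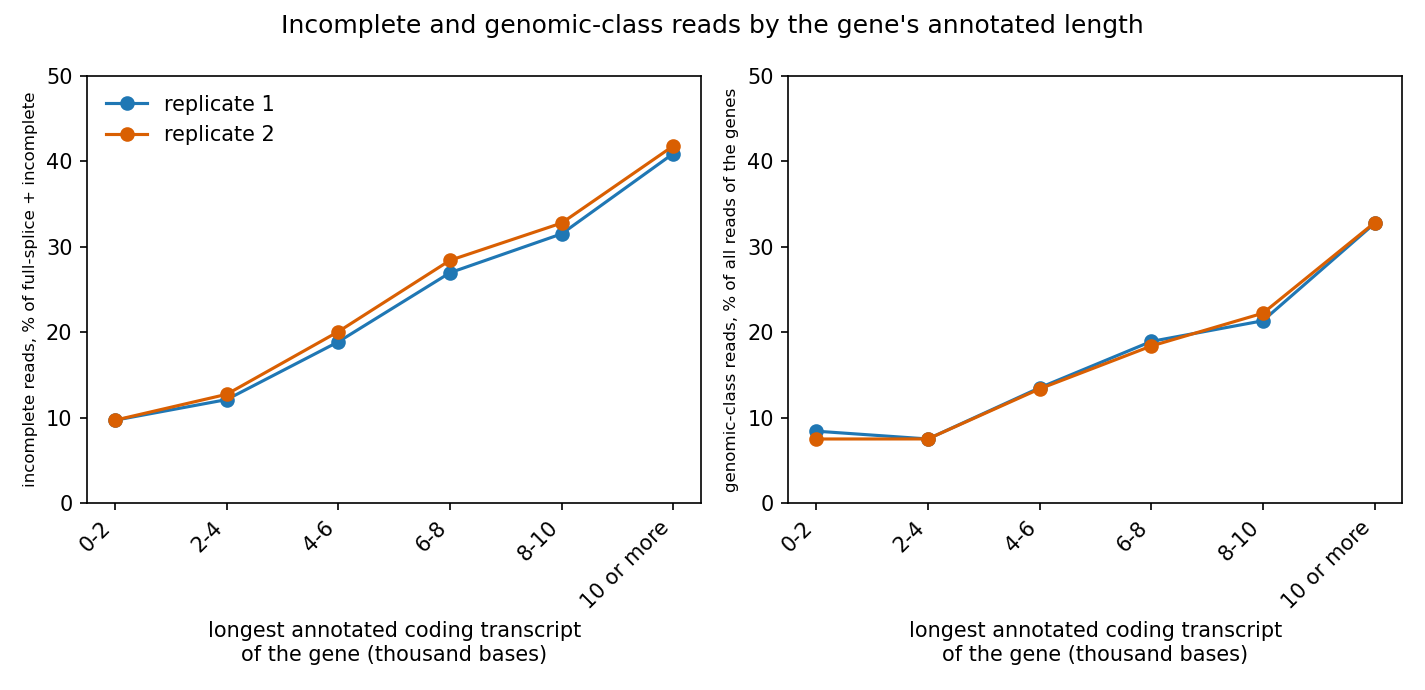
Incomplete reads as a percentage of full-splice plus incomplete reads (left) and genomic-class reads as a percentage of all reads of the genes (right), by the longest annotated coding transcript of the gene, with a line for each library. Both lines climb together, to 40.9% and 41.8% incomplete reads in the last class.

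Most incomplete reads of the long genes kept the 3′ part of the chain, namely 72.2% and 73.1%, against 67.2% and 66.8% in genes with only shorter models. Those that kept the 5′ part were 8.47% and 10.1%. The 3′ shares also depend on single-exon incomplete reads, which were 16.8% and 14.1% in long genes but 24.1% and 24.3% in the others. Among multi-exon incomplete reads of the long genes, 86.8% and 85.1% kept the 3′ part. This was not computed for the other genes, so a stronger 3′ bias in long genes is not shown. Genes whose long models carried at least 6000 bases between the end exons had 24.4% and 26.9% incomplete reads, and genes whose long models all carried under 2000 there had 13.9% and 14.0%. The difference in incomplete share between these 2 kinds of gene was larger than that between the libraries. Genomic-class reads went the other way, at 8.46% and 8.18% of all reads in the former kind and 19.1% and 19.7% in the latter. Whether the 2 kinds differ when genomic reads are counted as incomplete was not tested.

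Single genes covered nearly the whole range. Among 627 genes with a long model and 50 or more such reads per library, the median was 13.7%. The highest was the ubiquitin ligase gene Hectd4 at 96.8% and 94.0%, with 2 and 4 full-splice reads beside 60 and 63 incomplete ones. The adhesion protein Cadm1 had 92.7% and 92.1%, and 215 of its 216 and 172 of its 175 incomplete reads kept the 3′ part. The adhesion receptor Adgrl1 had 95.1% and 86.2%, and its 3′ part was kept in 16 of 78 and 20 of 50. The endocytic receptor Lrp1 had 88.9% and 89.3%. Dync1h1 had 89.0% and 89.1%, with 101 of 105 and 97 of 98 incomplete reads holding the 3′ part. At the other end, 5 genes had no incomplete read: Chst2, the peptidyl-prolyl isomerase Fkbp3, the nicotinic receptor modulator Lypd1, the circadian gene Noct and the nucleic acid-binding protein Tsn. Of these, Chst2, Lypd1 (67 and 71 long reads of 79 and 83 full-splice reads) and Tsn (56 and 54 of 66 and 68) had mainly long models, and Fkbp3 and Noct had 1 long read each. Chst2-201 has only 2 exons, so no incomplete read of it could have several exons. Of the 189 and 190 reads of Chst2, 35 and 32 were of the genomic class.

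In 1030 genes with a long model and 20 or more full-splice reads per library, the long models took a median 2.16% of the full-splice reads, with quartiles of 0.909% and 31.0%. This median depends on the models counted. It was 76.0% when only models with at least 2 reads in a library were taken and 69.2% with Known models only, settings under which fewer genes have a long model, and 5.0% and 6.15% in replicates 1 and 2 alone. The share was above 50% in 232 genes and above 90% in 105. It was under 10% in 709 genes (68.8%).

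Few genes differed between the libraries. Each gene with at least 20 reads of any class over both had its reads set against the ratio of the library totals in an exact binomial test (two-sided). It was called at a Benjamini-Hochberg adjusted p under 0.05 with at least a 2-fold difference. Of 2188 tested genes with a long model, 5 were called (0.229%), beside 0.309% of all 9062 genes tested, which is a similar share. A total of 715 genes with a long model had too few reads to test. At an unadjusted p under 0.05 there were 167 (7.63%) beside 7.42% of all genes. The median log2 ratio of replicate 2 to replicate 1 was 0.069 in genes with a long model and 0.008 over all genes. In 58.4% of them, beside 50.9% of all genes, the level was higher in replicate 2.

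The called genes had almost no long reads. Gclm, a subunit of the enzyme that starts glutathione synthesis, was higher in replicate 1 (0.143% of all genes were called in this direction), with 69 and 28 reads (exact binomial test, adjusted p = 0.0418), of which 1 and 0 were long. The other 4 were higher in replicate 2, as were 0.166% of all genes tested. Plppr2, a phospholipid phosphatase-related protein, had 152 and 343 reads (log2 ratio 1.32, adjusted p = 1.85e-19 by the same exact test), and of these 52 and 214 were incomplete. Ap1g2, an adaptor subunit, had 6 and 80 reads (adjusted p = 2.63e-16 by the exact test), of which 1 and 68 were incomplete. Rufy2 had 51 and 110 reads, with 14 and 76 of the genomic class (exact test, adjusted p = 6.38e-05). Pum2, a translational repressor, had 16 and 41 (exact test, adjusted p = 0.0471).

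Counted on long-model reads alone, 9 of 453 genes with at least 20 such reads were called, or 1.99%. The 0.309% of all genes is on reads of any class and is no like background. Reads of shorter models were not tested in this way. The 9 genes included Map4k5, with 2 and 38 long reads (exact test, adjusted p = 5.28e-08), Mast2 with 40 and 2 (exact test, adjusted p = 4.08e-07) and Slc7a4 with 1 and 27 (exact test, adjusted p = 6.39e-06). When the same chains were counted at any deposited length, Map4k5 had 29 and 38 reads, Mast2 40 and 25, and Slc7a4 31 and 28. On that count, which was added after the values were seen, 2 of 467 genes were called (0.428%), and both were higher in replicate 2. These were the G protein subunit gene Gna13, with 4 and 22 reads, and the kinase anchor gene Sphkap, with 30 and 61 (exact test, adjusted p = 0.0478 in both).

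The long models of 9 hand-made lists of neuronal and housekeeping genes are described next, and many leading genes, such as Ppp2ca and Glo1, are in none of them. On reads of any class, no gene of these lists was called different between the libraries, beside 0.309% of all 9062 genes tested. The numbers of tested and called genes given for each list are on such reads. On long-model reads alone, where 1.99% of 453 genes were called, Atp2b1 (18 and 51) and Dclk1 (17 and 40) were among them (exact test, adjusted p = 0.000965 and 0.0383). Their long chains counted at any length had 64 and 63 reads in Atp2b1 and 40 and 41 in Dclk1. With so small a share over all genes, the absence of calls on reads of any class shows nothing particular to the lists. Among microtubule, spectrin-ankyrin and motor proteins, 31 of 36 genes had a long model, with 395 and 424 reads, and 0 of 34 tested were called. Kif1b had 65 and 38 long reads, Sptbn1 44 and 57 and Sptan1 49 and 46. Long models took 86.3% ± 1.64 (SD, n = 2) of the full-splice reads of Sptan1, but 64.8% and 67.5% of its full-splice plus incomplete reads were incomplete. Map1a, Map1b, Dst, Utrn and Mical2 had no long model, although all were read.

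At synapses, 15 of 18 presynaptic active zone genes had a long model, with 48 and 64 reads. The calcium sensor Syt7 had 17 and 15, the active zone scaffolds Rims1 and Rims2 had 16 and 13 and 3 and 7, and the vesicle priming factor Unc13b had 2 and 10. The giant scaffold genes Bsn and Pclo had 1 long read each, both in replicate 2, and 96.4% and 97.3% of the full-splice plus incomplete reads of Bsn were incomplete. Of 26 postsynaptic scaffold and receptor genes 16 had a long model, with 64 and 56 reads. Iqsec3, an exchange factor at inhibitory synapses, had 24 and 16, the scaffold Magi2 had 10 and 7, Iqsec2 had 6 and 9 and the scaffold Lrrc7 had 10 and 4. In these lists 0 of 16 and 0 of 25 tested genes were called.

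Channels and calcium handling genes had more, with 20 of 30 genes and 287 and 374 long reads. Most lay in the calcium pump Atp2b2 (114 and 153) and the sodium channel Scn8a (63 and 90), followed by Atp2b1 (18 and 51) and Scn2a (18 and 20). Long models were 95.6% ± 0.867 (SD, n = 2) of full-splice reads in Atp2b2 and 98.5% ± 2.18 in Scn8a. The Atp2b1 count of replicate 2 includes 42 reads of the chain whose deposited length crossed the limit, described above. In replicate 1 that chain was under 6000 bases, and the 18 long reads were of other chains. In adhesion and extracellular genes 34 of 43 had a long model, with 203 and 204 reads. The sorting receptor Sorl1 had 29 and 29, the adhesion receptor Adgrb1 26 and 20, the cell adhesion molecule Dscaml1 22 and 20 and the proteoglycan Ncan 19 and 20. None of 24 and 33 genes tested on reads of any class were called. Atp2b2, with 172 and 238 reads of any class, was past the p threshold (exact binomial test, adjusted p = 0.00617). Its log2 ratio of 0.616 was under the 2-fold limit.

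In the nucleus, 42 of 52 chromatin and transcription genes had a long model, with 264 and 276 reads. The transcription factor Nfib had 33 and 44 and few incomplete reads, at 7.27% and 3.51%. The remodelling ATPases Smarca4, Smarca2 and Chd3 had 26 and 23, 14 and 34, and 23 and 12 long reads, with incomplete shares of 58.1% and 57.1%, 72.0% and 52.3%, and 65.1% and 74.8%. Of 30 RNA and translation genes 21 had a long model, with 155 and 115 reads, and Gcn1 was not matched in the annotation. The nucleolar protein Ncl had 47 and 46, the splicing helicase Snrnp200 24 and 20, the deadenylation scaffold Cnot1 18 and 8 and the translational regulator Cpeb2 10 and 7. None of 36 and 23 tested genes were called.

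For ubiquitin and protein turnover, 22 of 27 genes had a long model, with 111 and 106 reads. The ubiquitin ligases Trip12 and Ubr3 had 16 and 19 and 20 and 13. Long models took 95.2% ± 6.73 (SD, n = 2) of the full-splice reads of Trip12. Among kinases, phosphatases and GTPase regulators, 33 of 46 had a long model, with 432 and 506 reads, the most of the 9 lists. The protein kinase C gene Prkce had 76 and 96, the BDNF receptor Ntrk2 54 and 44, Pi4ka 40 and 45 and Arhgap21 33 and 32. Ntrk2 also has shorter forms, and its long models took 47.7% ± 5.25 of its full-splice reads. Here 0 of 21 and 0 of 41 tested genes were called.

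Across the lists the median share of a gene's full-splice reads in its long models ran from 22.9% in postsynaptic genes to 79.2% in ubiquitin genes. The median incomplete share ran from 34.2% in presynaptic to 69.0% in ubiquitin genes. The 13.7% over 627 long genes is not a like value. It takes only genes with at least 50 full-splice plus incomplete reads in each library, and the list medians have no such minimum. The lists were also not matched for annotated length, with which the incomplete share rose. Many list members had few reads, so these medians are a description of these genes only.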

How the data were processed

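Long-read RNA sequencing gave a table of reads per transcript model and a file of model structures for each of 2 hippocampus libraries. The deposited values are whole-number counts per model, with no normalization, and further deposited columns hold each model's length, exon number and exon coordinates. Per the file headers the structures come from TALON, and per the deposited text files they rest on mm10 and GENCODE M21. Aligner, platform and filters: not given in the sources used here.

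Spike-ins were left out, and CPM is per 1e+06 remaining reads. Chains of introns joined models across libraries, since unannotated identifiers carry a library name. Genes were tested between the libraries with exact binomial tests (scipy 1.17.1) with Benjamini-Hochberg adjustment over all genes with at least 20 reads. With 1 library a side, p-values compare libraries, not conditions. Log2 ratios use a pseudocount of 0.5 reads. Intervals are exact 95% Clopper-Pearson intervals. Reads carry no molecular identifiers, so counting error is all that intervals and limits cover. A count of 0 allows up to 3 reads, or 3.63 and 4.02 CPM. TMM factors were computed with edgeR 4.0.16 as an alternative scaling.

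Named genes are the 12 with most long reads, the 8 longest and 5 most-exon chains with at least 5 reads, the 8 unannotated chains with most reads, the 5 highest and 5 lowest incomplete shares, the 4 leading members of each role list, the called genes, and the 2 models on each side of the limit. Microexon genes, chains with many bases between end exons and chains that cross the limit were named after their values were seen. A few items that this rule selects are not reported here. The members and lists were chosen with earlier results of these data known. Alternatives covered the length limit, read minimum, classes, each library left out and the test settings.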

Additional observations from a re-analysis of the deposited data

Results flagged for a closer look

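Models of other classes also reached 6000 bases and are in no comparison above. Incomplete models of this length (class ISM) had 2603 reads in replicate 1 and 2941 in replicate 2, in 788 and 793 genes, of which 564 and 580 also had a long full-splice model. Models of the genomic class had 2015 and 2176 reads, of which 46 and 58 were in models with several exons. Antisense models had 5804 and 4992 reads, of which 112 and 118 were in models with several exons. Intergenic models had 116 and 81 reads. There are no control samples, and these sums over many models were not set against a background.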

How the results depend on the processing

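The higher share of full-splice reads in long models in replicate 2 kept its direction and stayed past 0.05 under all 7 two-library alternatives. With a minimum of 5000 bases there were 14645 chains in 4486 genes, 3049 of them in both libraries, with 19.3% incomplete reads, a median long share per gene of 3.70%, and 8 called genes. The share of unannotated reads was 27.5% and no longer differed between libraries. With a minimum of 8000 bases there were 1910 chains in 1056 genes, 404 in both, with 24.3% incomplete reads, 71.4% of them with the 3′ part, a median long share of 1.59%, 22.7% unannotated reads without a difference between libraries, and 0 of 803 tested genes called. Requiring 2 reads left 1920 chains in 1267 genes and 1015 in both, with 24.6% incomplete, 70.3% with the 3′ part and a median long share of 76.0%. Known models alone gave 1423, 1244 and 1008, with 27.4%, 70.8% and 69.2%. NIC and NNC models alone gave 556 chains in both, 73.4% with the 3′ part and a median long share of 1.67%.

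With length counted without the end exons there were 1548 chains in 678 genes, 176 in both, with 25.6% incomplete, 76.8% with the 3′ part and a median long share of 1.16%. The unannotated share was then 62.5%, and it was higher in replicate 1, the opposite of the value above, with Fisher's exact test p = 0.527. Multi-exon incomplete reads alone gave 18.1% and 86.0% with the 3′ part, and counting genomic reads as incomplete gave 30.1%. A minimum of 10 or 50 full-splice reads gave a median long share of 3.97% or 0.909%. Called genes numbered 11 with no fold limit, 3 on full-splice reads, 9 on long-model reads and 2 on long chains at any length, and 5 under TMM scaling. With 1 library left out the chains were 4552 to 4693, the genes 2167 to 2257, the incomplete share 21.2% to 23.0%, the share with the 3′ part 71.8% to 72.4%, and the median long share 5.0% to 6.15%. Where fewer models qualify, fewer genes enter these shares. The cause of other changes was not tested. No paired analysis was possible because there is 1 group.

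The main limits are depth and length. Most long chains rest on 1 read, and a count of 0 long reads allows up to 3. The deposited length of annotated models does not show where reads ended, and that of unannotated models differed between libraries, so membership near the limit is uncertain.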
